A study of Mus musculus and Homo sapiens with 15 samples.

Results

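The variable segments of the T-cell receptor beta chain (Trbv) were taken as every gene whose symbol is Trbv followed by a digit. There were 35 of them, in a table of 52340 genes for thymus and in a table of 56691 genes for grafts, and both tables held the same 35. GENCODE vM21 types 22 of them as variable genes and 13 as pseudogenes. Counts were found in at least 1 library for all but 4 pseudogenes, Trbv7, Trbv8, Trbv27 and Trbv28. The rule on symbols itself uses no measured value.

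The study asked how the transcriptome of T-cell lymphomas with a mutant p53 differs with and without arsenic trioxide (ATO), an arsenical drug. Of its 15 samples, 13 mouse RNA sequencing libraries were analysed here, and the libraries of a human myeloid leukaemia line, U937, were not used. All 9 thymus libraries came from W/W mice, which carry p53R282W on both alleles, had T-lymphomas and were sampled at day 150 after birth. Of these, 3 were given water, 3 were given ATO and are labelled as not regressing (here progressing), and 3 were given ATO and are labelled as in tumour regression (here regressing). The ATO mice were thus divided by outcome, so drug and outcome cannot be told apart in a comparison of 1 of these groups with water. The other 4 libraries came from grafted tumours in C57 mice, described as a CDX model with the genotype WT, 2 of which were given phosphate-buffered saline (PBS) and 2 ATO. Grafted cells, sex, batch and the meaning of a replicate number are not given in the labels.

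A developing T cell builds its beta chain gene by joining 1 variable (V), 1 diversity (D) and 1 joining (J) segment, which are then spliced to a constant gene, Trbc1 or Trbc2. RAG1 and RAG2 cut the DNA, and most mature T cells keep a single productive V segment on their receptor. Daughters of 1 cell inherit its joint, so a clonal T-cell population reads out few V segments, whereas a normal thymus makes many different joints at the same time.

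The V segments that led in a library are shown here by the last 60 bases of their GENCODE vM21 transcript (GRCm38), 5′ to 3′ in the sense of the gene. Capitals mark the TGT codon of the conserved cysteine at which the hypervariable CDR3 loop begins. Of the 6 leading segments, Trbv4, Trbv12-1, Trbv13-2 and Trbv19 went on after this codon with gccagc, Trbv31 with gcctgg and Trbv20 with ggtgct.
Trbv12-1: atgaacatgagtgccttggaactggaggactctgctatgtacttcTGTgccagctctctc
Trbv4: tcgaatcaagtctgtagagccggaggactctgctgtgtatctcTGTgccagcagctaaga
Trbv13-2: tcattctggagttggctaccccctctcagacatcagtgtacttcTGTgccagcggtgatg
Trbv31: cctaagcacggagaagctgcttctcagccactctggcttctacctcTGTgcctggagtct
Trbv20: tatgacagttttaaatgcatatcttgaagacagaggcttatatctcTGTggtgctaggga
Trbv19: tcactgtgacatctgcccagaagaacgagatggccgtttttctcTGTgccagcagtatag
Trbv12-2: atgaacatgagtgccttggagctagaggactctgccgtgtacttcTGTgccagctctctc
Trbv12-2, the second segment of 1 water library, is added because it is the closest relative of Trbv12-1. The 2 transcripts were 88.3% identical over their alignment, and Trbv13-2 was 90.6% identical to Trbv13-3, so reads can be shared within these families. Of the 336 windows of 50 bases in Trbv12-2, 4 occurred in another V segment, and of the 291 in Trbv13-2, 1 did.

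On GRCm38 the leading segments lie on chromosome 6. Trbv4 spans chr6:41059394-41059886, Trbv12-1 chr6:41113550-41114067, Trbv12-2 chr6:41118851-41119364 and Trbv13-2 chr6:41121396-41121832. Trbv19 spans chr6:41178375-41179048 and Trbv20 chr6:41188273-41188977, all on the plus strand. Trbv31, at chr6:41557691-41558452 on the minus strand, is the last V segment in this order. It lies beyond the D, J and constant genes in the inverse orientation. The coordinates in the thymus table equalled those of vM21 for 35 of 35 segments. For the grafts 0 of 35 starts did, and the build of that table is not given in the sources used here, so graft coordinates were not used.

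Total counts per library ran from 12800367 to 17550594. Mitochondrial genes took 2.08% to 8.83% of the counts in thymus, and 0.521% and 1.02% in the PBS grafts against 5.98% and 4.03% in the ATO grafts. All 8 T-cell markers (Cd3d, Cd3e, Cd3g, Cd247, Cd2, Cd5, Lck and Thy1) had counts in all 13 libraries. Regressing replicates 1 and 2 stood closest of all replicate pairs, with a chi-square per degree of freedom of 14.5 over all genes. The other 10 pairs had 31.8 to 222. Over the V segments it was 1.76 (chi-square test p = 0.0133), against 4.59 to 603 for the other 10 pairs. These values exceed counting noise, but they cannot tell whether replicates 1 and 2 came from separate mice. Both were kept as 2 samples. Nothing in the labels says how far replicates were separate beyond the mouse descriptions, so p-values measure the spread between these samples. V counts per library ran from 1484 in water replicate 2 to 9066 in PBS graft 1. Intervals below are exact Clopper-Pearson 95% intervals of a share of V counts and hold counting error alone, as without molecular identifiers some reads can be copies of 1 molecule.

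In every water and progressing thymus a single V segment held 76.4% to 94.3% of all V counts, and in the regressing thymuses the leading one held 9.99% to 14.0%. Among the water libraries, Trbv12-1 led in replicate 1 with 4503 of 4809 V counts, 93.6% (92.9% to 94.3%). Trbv4 led in replicate 2 with 1386 of 1484, 93.4% (92.0% to 94.6%). Trbv13-2 led in replicate 3 with 1717 of 2246, 76.4% (74.6% to 78.2%). The 3 water mice thus each had another leading segment, and each leader was low in the other water libraries: Trbv12-1 had 1 count in each of them, Trbv4 had 12 and 1, and Trbv13-2 had 41 and 11.

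Among the progressing libraries, Trbv31 led in replicate 1 with 4756 of 5042 V counts, 94.3% (93.7% to 95%). Trbv20 led in replicate 2 with 3520 of 4103, 85.8% (84.7% to 86.8%). Trbv31 led again in replicate 3 with 1640 of 2096, 78.2% (76.4% to 80.0%). No segment that led in a water library led in a progressing library. Trbv31 had 84 counts in progressing replicate 2 and 8, 2 and 0 in water, and Trbv20 had 31 and 3 in the other progressing libraries and 12, 0 and 0 in water.

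The regressing libraries shared both their leading and their second segment. Trbv13-2 led with 1182 of 8569, 1174 of 8384 and 560 of 5607 V counts, which is 13.8% (13.1% to 14.5%), 14.0% (13.3% to 14.8%) and 9.99% (9.21% to 10.8%). Trbv2 came second with 754, 780 and 491 counts, which is 8.80%, 9.30% and 8.76%. The leading share was 87.8% ± 9.86 in water, 86.1% ± 8.05 in progressing and 12.6% ± 2.26 in regressing (SD, n = 3 each), and the regressing range did not overlap the others.

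**Figure D1:**
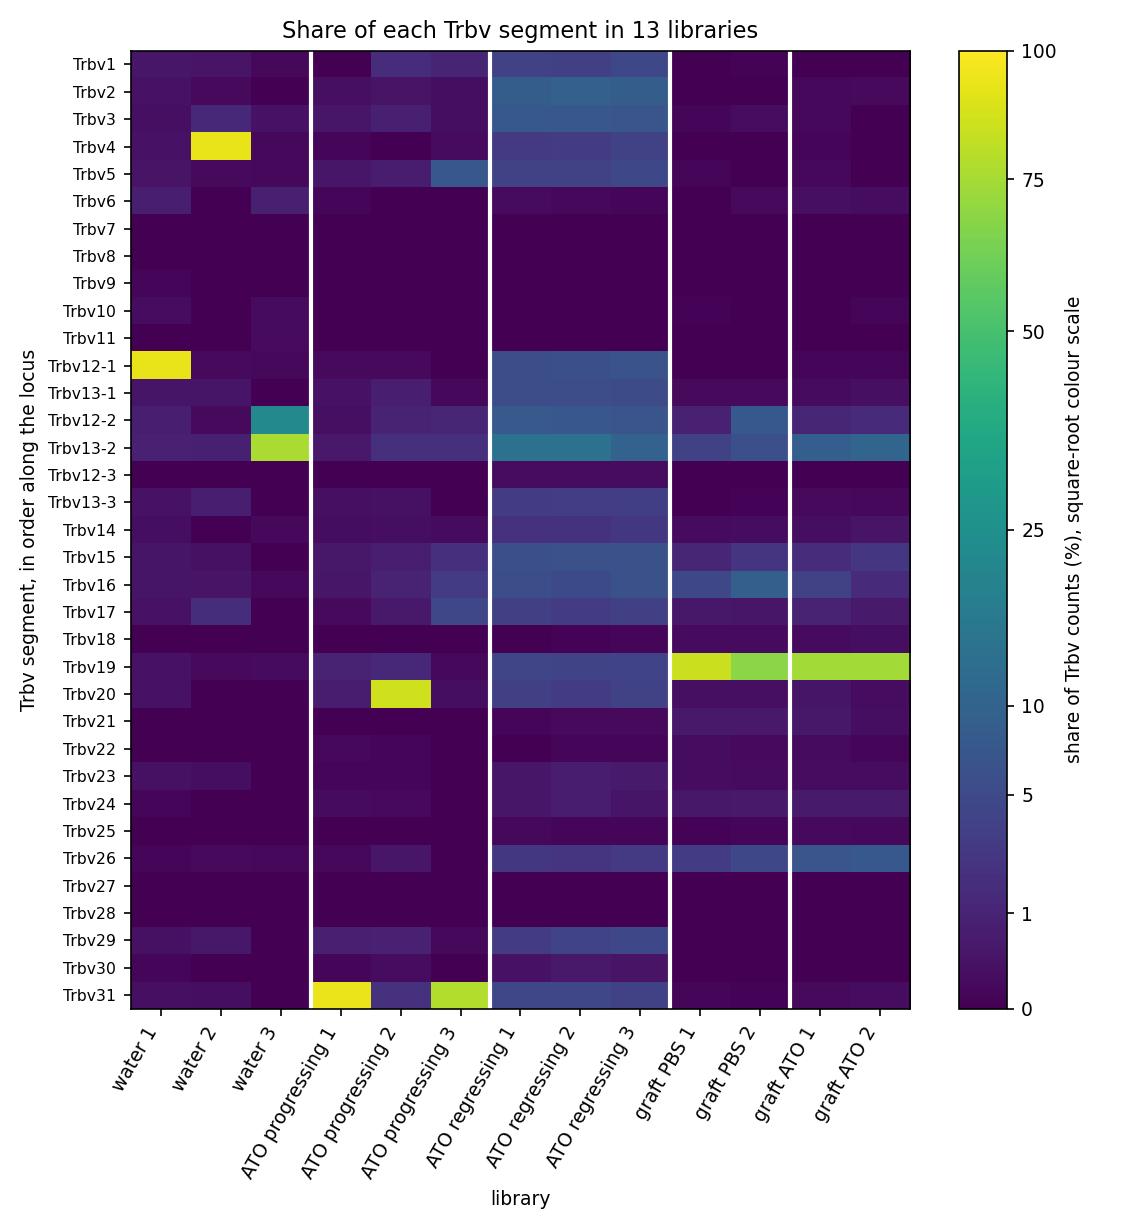
Share of each of the 35 Trbv segments (rows, in order along the locus) among all Trbv counts of a library (columns, 13 libraries, white lines between groups), in percent on a square-root colour scale. Water, progressing and graft columns each hold 1 bright cell, with 68.0% to 94.3% of the counts, and the regressing columns are filled at low values over many segments.

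The spread over segments was summarised by the inverse Simpson index, the effective number of segments, which equals 1 when a single segment holds all counts. It was 1.14, 1.15 and 1.58 in water, 1.12, 1.36 and 1.61 in progressing and 15.3, 15.3 and 17.1 in regressing libraries. The water and progressing libraries overlapped, and the lowest regressing value was above all of theirs. In the grafts it was 1.39 and 2.07 after PBS and 1.77 and 1.77 after ATO, near the water and progressing thymuses.

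Segments with at least 1% of the V counts numbered 1, 3 and 2 in water, 2, 5 and 8 in progressing and 19 in each regressing library. The regressing libraries also held more V counts. At a common depth of 1484 V counts, the expected number of segments with a count was 21.7, 18.0 and 11.3 in water, 17.9, 20 and 14.9 in progressing and 24.5, 25 and 24.8 in regressing libraries. At this depth all regressing libraries stood above all water and progressing libraries, with a narrower gap than in the effective number.

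**Figure D2:**
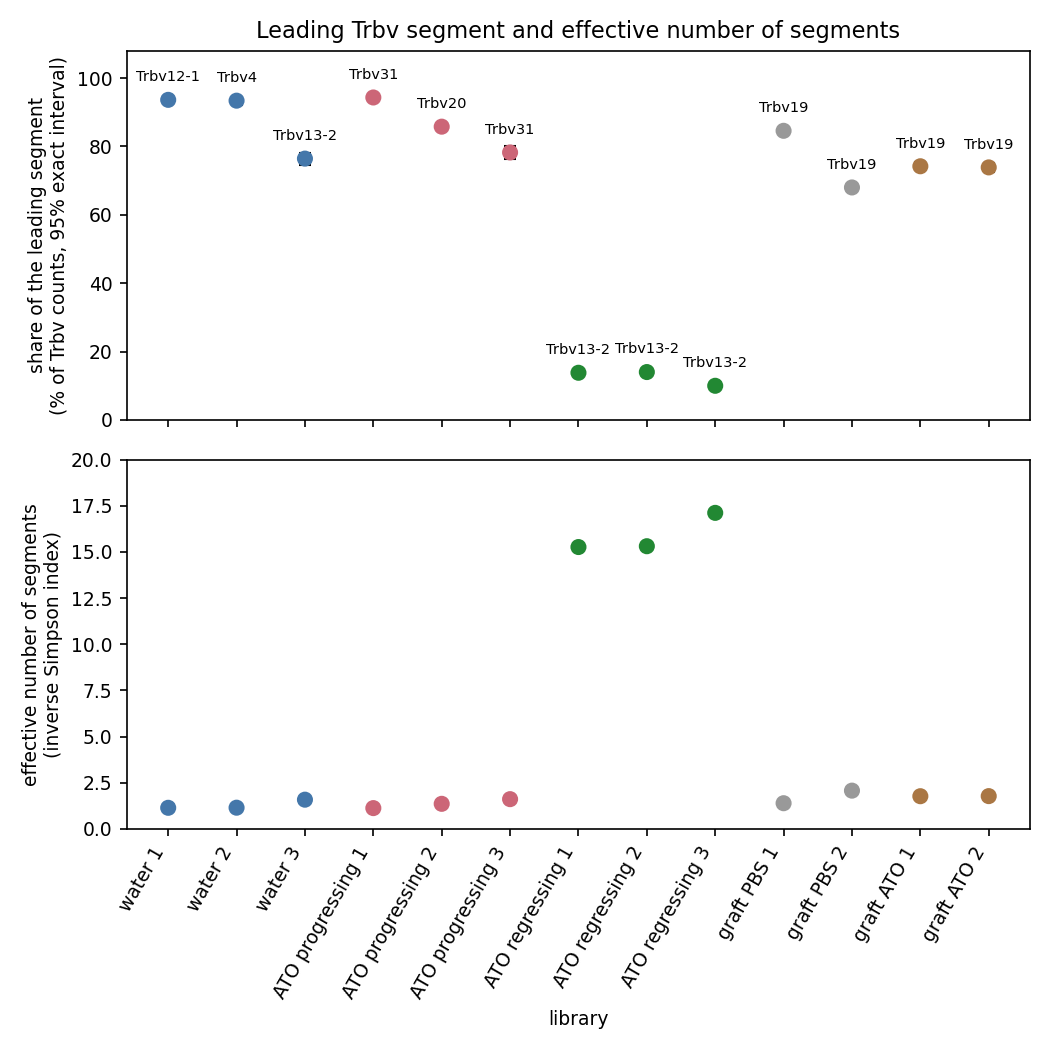
Share of the leading Trbv segment in percent of Trbv counts, with its exact 95% interval and the segment's name (top), and the effective number of segments (bottom), for each of 13 libraries coloured by group. The regressing thymuses lie at 9.99% to 14.0% and 15.3 to 17.1 segments, apart from all other libraries.

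The second segments differed between lymphomas. In water replicate 3 the second was Trbv12-2 with 494 counts, 22.0% of the V counts, and it is the segment next to the leader Trbv13-2 in the locus. The third segment of that library, the pseudogene Trbv6, had 17 counts. In water replicates 1 and 2 the second segments were Trbv13-2 with 41 counts (0.853%) and Trbv17 with 26 counts (1.75%).

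In progressing replicate 3 the second segment was Trbv5 with 155 counts (7.40%), followed by Trbv17 with 94 (4.48%), Trbv16 with 65 and Trbv15 with 40. Progressing replicates 1 and 2 had Trbv19 with 52 counts (1.03%) and Trbv31 with 84 (2.05%) as second segments. Leading segments thus exceeded the second by 91.5, 41.9 and 10.6 times in progressing libraries, by 110, 53.3 and 3.48 times in water, and by 1.57, 1.51 and 1.14 times in regressing libraries.

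The profiles of 2 libraries can be compared by the share they have in common, the sum over segments of the smaller of both shares. Regressing libraries had 92.9% to 97.0% in common with each other. Water libraries had 1.37% to 3.50% in common with each other. Progressing replicates 1 and 3, which both led with Trbv31, had 80.8% in common, and each had 7.66% or 9.39% with replicate 2. Water and progressing libraries had 1.22% to 5.16% in common.

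With the leading segment left out, the remaining V counts of water replicate 1 (306 counts) had 79.4% in common with the regressing profile. In water replicate 2 (98 counts) it was 54.8%, and in water replicate 3 (529 counts) 11.1%. In the progressing libraries (286, 583 and 456 counts) it was 63.6%, 74.6% and 41.9%. A regressing library with Trbv13-2 left out had 94.4% to 96.4% in common with the mean profile of the other regressing libraries.

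The total level of V segments, in CPM (counts scaled to a common library size with TMM factors), was 309, 113 and 138 in water, 310, 346 and 154 in progressing and 529, 590 and 369 in regressing thymuses. The lowest regressing library stood above the highest water and progressing libraries. Without the leading segment the level was 19.7, 7.47 and 32.6 CPM in water, 17.6, 49.2 and 33.4 in progressing and 456, 508 and 332 in regressing libraries. In tissue RNA, fewer cells of a type and less RNA per cell cannot be told apart. Summed T-cell markers were 1305 to 2018 CPM in water, 2175 to 3704 in progressing and 2990 to 4892 in regressing libraries. Of these 8 markers 2 rose, Lck and Cd247, and 0 fell in regressing against water by edgeR. Among all tested genes 3.13% rose and 4.57% fell. At an unadjusted p under 0.05, by DESeq2 and by limma-voom it was 3 and 0. The log2 differences of Cd3d, Cd2 and Cd5 were -0.34, -0.45 and -0.06 with overlapping groups, so the sum does not hold for each marker. In progressing against water 1 rose and 2 fell: Cd5 by 3.58 (SE 0.42, edgeR adjusted p = 0.00157) and Cd2 by 2.99 (SE 0.49, edgeR adjusted p = 0.00613), both lower in all progressing than in any water library.

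**Figure D3:**
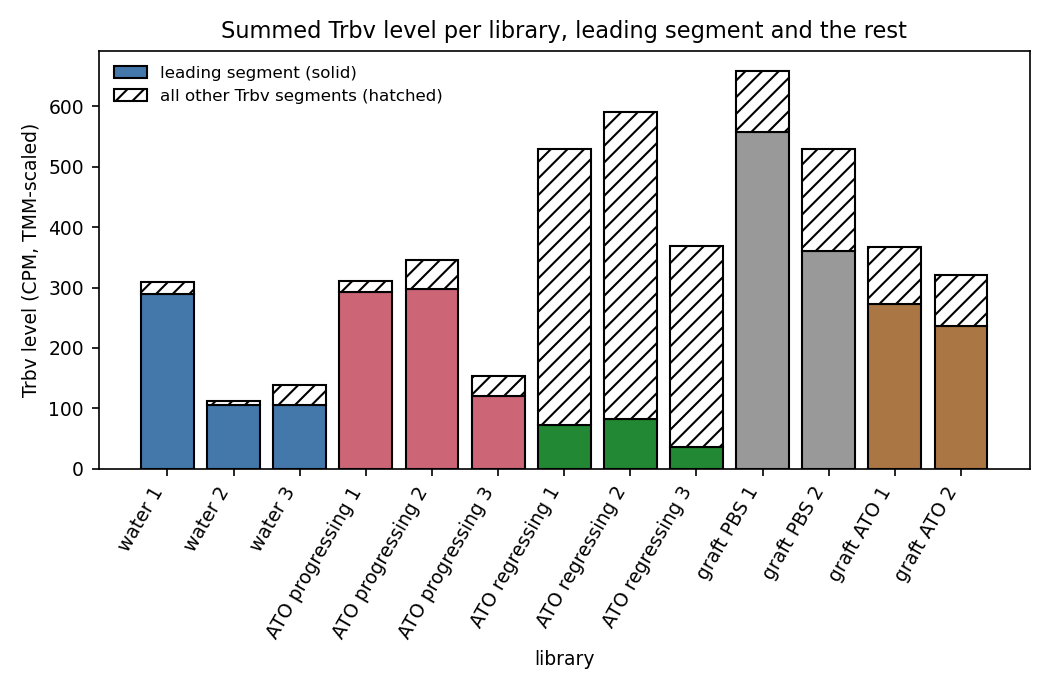
Summed Trbv level in TMM-scaled CPM for each of 13 libraries, with the leading segment solid and all other segments hatched. The hatched part is 332 to 508 CPM in the regressing thymuses and at most 49.2 CPM in the water and progressing thymuses.

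Usage in the regressing thymuses was spread over the locus. After Trbv13-2 (12.6% ± 2.26) and Trbv2 (8.95% ± 0.304) came Trbv12-2 (7.37% ± 0.418), Trbv3 (7.27% ± 0.296), Trbv12-1 (6.08% ± 0.371) and Trbv15 (6.03% ± 0.0628). The next were Trbv16 (5.67% ± 0.558) and Trbv13-1 (5.57% ± 0.153), all SD with n = 3. Ranks 9 to 19, from Trbv31 (4.28% ± 0.447) to Trbv14 (2.25% ± 0.330), overlapped with their neighbours step by step. The 19 most used segments held 98.5% of the counts on average, and all 19 are typed as variable genes.

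Below them usage dropped. Trbv23 (0.490% ± 0.112), the pseudogene Trbv24 (0.426% ± 0.139) and Trbv30 (0.332% ± 0.117) were the largest of the rest. Along the ranks, the range of 3 libraries was clear of the next segment's range after Trbv13-2, Trbv2, Trbv3, Trbv13-1, Trbv14, Trbv30 and Trbv12-3. At other ranks the ranges of neighbours overlapped, which does not show that they are equal within a library. Trbv26, with 228, 195 and 159 counts, was above Trbv14, with 170, 181 and 147, in each regressing library. Pseudogenes together took 0.619%, 0.811% and 0.517% of the V counts.

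The other leaders of the lymphomas ranked lower here. Trbv12-1 held 6.08%, Trbv31 4.28%, Trbv19 4.23% ± 0.237, Trbv20 3.48% ± 0.366 and Trbv4 3.19% ± 0.518 of the regressing V counts. Levels of different segments are comparable only per length, and the exonic sizes of the leaders ran from 335 to 566 bases. Per exonic base the same segment led in 13 of 13 libraries. On that scale Trbv13-2 held 14.5% ± 2.61 of the regressing V signal, Trbv12-2 7.52% ± 0.426 and Trbv15 6.41% ± 0.0671, and the longer Trbv2 6.28% ± 0.210.

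**Figure D4:**
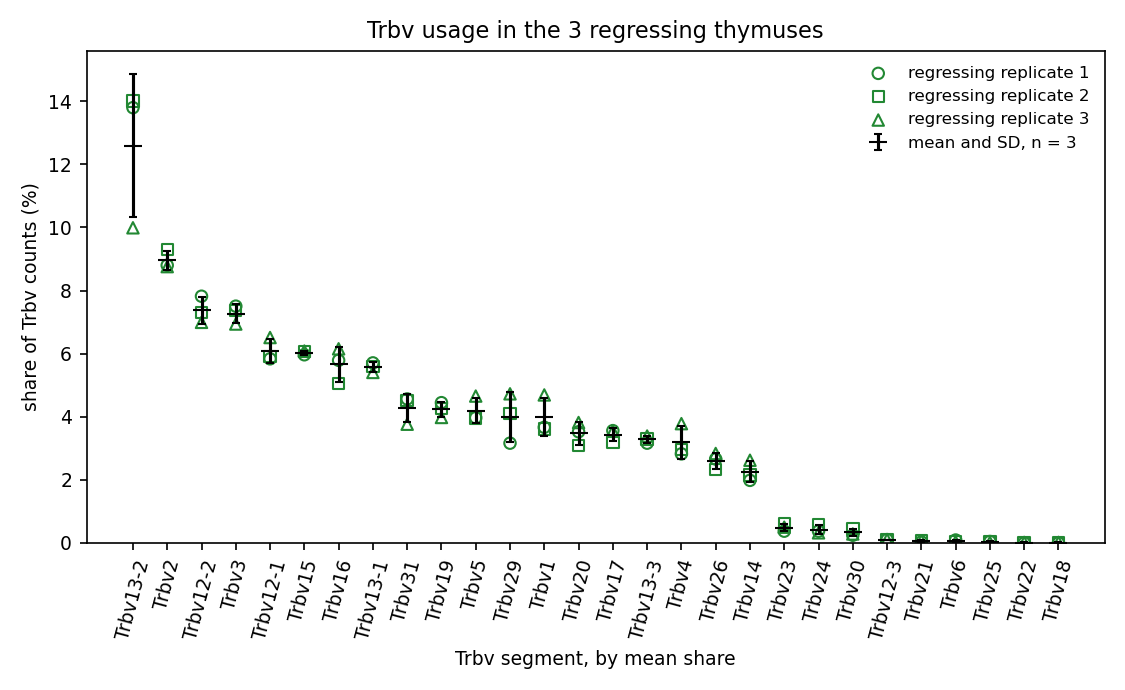
Share of Trbv counts in percent for the segments with counts in the 3 regressing thymuses, ordered by mean share, with 1 open symbol per library and the mean and SD in black. Shares step down from 12.6% for Trbv13-2 to 2.25% for Trbv14 and lie under 0.5% for the segments after it.

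Differences in level were tested with edgeR's quasi-likelihood test over all 18119 thymus genes that passed the filter on low counts, with Benjamini-Hochberg adjustment at 0.05. Of the 35 segments 22 passed this filter, and with water and progressing libraries alone only 12 did, so a share of the 22 were testable because they were high in regressing thymuses. Counts of calls among the 22, and the median log2 differences of the 22 set beside those of all genes, are therefore descriptions. So are counts of called members in the other lists, to be read beside the share of all tested genes given for each contrast. The 3 contrasts against water share the water libraries, and their values stand side by side.

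In regressing against water, 15 segments rose and 0 fell of the 22 tested, where 7.7% of all tested genes were called, 3.13% higher and 4.57% lower. At an unadjusted p under 0.05 there were 18 higher and 0 lower, against 11.6% and 16.4% of all genes, and DESeq2 and limma-voom called 0 lower too. All regressing libraries were above all water libraries for 18 segments (19.3% of all genes) and below them for 0 (20.9% of all genes). The median log2 difference of the 22 was 5.82, against -0.11 for all tested genes. Trbv2 had 12, 1 and 0 counts in water and 754, 780 and 491 in regressing libraries. Its log2 rise was 7.24 (SE 1.08, edgeR adjusted p = 0.00888). All 3 regressing libraries were above all water libraries.

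Trbv26 had 1 count in each water library and 228, 195 and 159 in regressing ones. Its fitted rise was 7.40 (SE 1.31, edgeR adjusted p = 0.0141), a value that depends on the prior count. The ratio of pooled counts per scaled library size was 191, with a counting interval of 65.0 to 929. The pseudogene Trbv24 had 1, 0 and 0 counts in water and 32, 49 and 18 in regressing libraries, with a fitted rise of 6.17 (edgeR adjusted p = 0.0226) and a pooled ratio of 97.5 (17.1 to 3889). Both segments were higher in all regressing libraries, at low counts in water.

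Trbv31 had 8, 2 and 0 counts in water and 391, 378 and 211 in regressing libraries and rose by 6.54 (SE 1.31, edgeR adjusted p = 0.0203). Trbv15 had 16, 3 and 0 counts against 511, 508 and 341 and rose by 6.12 (SE 1.04, edgeR adjusted p = 0.0126). The other 10 segments that rose did so by 5.04 (Trbv13-3) to 6.09 (Trbv14) on the log2 scale. The water leaders Trbv4, Trbv12-1 and Trbv13-2 were not called, and 1 water library was high for each.

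The number of calls changed most without regressing replicate 1 or 2. Without regressing replicate 2 edgeR called 0 segments and 60 genes in all, with 18 segments at an unadjusted p under 0.05. Without regressing replicate 1 it called 2 segments and 86 genes in all. Without water replicate 2, 7 were called, and the other 3 leave-1-out fits called 11 to 13. DESeq2 called 17 segments higher, and limma-voom 16. Over the leave-1-out fits the rise of Trbv2 was 6.65 to 10.01, and only the fit without regressing replicate 2 lost its call. The calls of Trbv26 and Trbv15 were kept in 4 of 6 leave-1-out fits. That of Trbv31 was kept in 3 of 6 and lost with limma-voom, and that of Trbv24 was kept in 2 of 6. All 4 were lost without regressing replicate 1 or 2.

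In progressing against water, 3 segments rose and 2 fell of 22, where 11.9% of all tested genes were called, 4.77% higher and 7.13% lower. At an unadjusted p under 0.05 there were 6 higher and 3 lower, against 12.4% and 16.2% of all genes. All progressing libraries were above all water libraries for 4 segments (11.9% of all genes) and below them for 0 (14.7% of all genes). The median log2 difference was 1.98 for the 22 and -0.04 for all. Trbv31 had 8, 2 and 0 counts in water and 4756, 84 and 1640 in progressing libraries. It rose by 9.24 (SE 1.42, edgeR adjusted p = 0.00478), and all 3 progressing libraries were above all water libraries, replicate 2 with far fewer counts than replicates 1 and 3.

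Trbv20 rose by 8.52 (SE 2.36, edgeR adjusted p = 0.0417) through progressing replicate 2 alone, and the groups overlapped. Trbv5 had 14, 1 and 1 counts in water and 18, 26 and 155 in progressing libraries and rose by 3.77 (SE 1.10, edgeR adjusted p = 0.0495). Trbv12-1 fell by 9.31 (SE 2.69, edgeR adjusted p = 0.0478), with 4503, 1 and 1 counts in water and 3, 3 and 0 in progressing libraries. Without water replicate 1 its difference was 0.99 in the other direction, with no call.

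Trbv4 fell by 8.79 (SE 2.32, edgeR adjusted p = 0.0352), with 12, 1386 and 1 counts in water and 1, 0 and 2 in progressing libraries, and without water replicate 2 the difference was -2.40 and not called. The pooled ratios of water over progressing were 698 (320 to 1903) for Trbv12-1 and 434 (148 to 2105) for Trbv4, by counting error only. In both cases the groups overlapped, and 1 library held nearly all water counts. The rise of Trbv31 was called in 6 of 6 leave-1-out fits, at 8.10 to 10.81, but not with limma-voom (adjusted p = 0.0834), which called 0 segments here, with 4 at an unadjusted p under 0.05. The other 4 calls were each kept in 2 of 6 leave-1-out fits, and the segments called numbered 1 without progressing replicate 2, 3 without progressing replicate 3 or water replicate 2 or 3, and 4 and 5 otherwise. With a replicate block, or with only water and progressing libraries in the fit, edgeR called 1 segment in this contrast.

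In regressing against progressing, 10 segments rose and 0 fell of 22, where 12.6% of all tested genes were called, 6.45% higher and 6.18% lower. At an unadjusted p under 0.05 there were 18 higher and 1 lower, against 15.2% and 16.5% of all genes. All regressing libraries were above all progressing libraries for 20 segments (21.4% of all genes) and below them for 0 (20.6% of all genes). The median log2 difference was 3.95 for the 22 and -0.07 for all. Trbv2 had 8, 11 and 3 counts in progressing and 754, 780 and 491 in regressing libraries. It rose by 6.34 (SE 1.03, edgeR adjusted p = 0.0107), without overlap, and was called in 6 of 6 leave-1-out fits at 5.97 to 6.998.

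Trbv23 had 1, 1 and 0 counts in progressing and 32, 50 and 28 in regressing libraries, a pooled ratio of 50.4 (13.6 to 421) with a fitted rise of 5.44 (edgeR adjusted p = 0.0262). Trbv13-3 had 9, 8 and 0 against 271, 276 and 190 and rose by 5.28 (SE 1.25, edgeR adjusted p = 0.0265). Trbv14 had 5, 6 and 2 against 170, 181 and 147 and rose by 5.08 (SE 0.96, edgeR adjusted p = 0.0156). Trbv26 had 2, 15 and 0 against 228, 195 and 159 and rose by 4.80 (SE 1.11, edgeR adjusted p = 0.0251).

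The groups did not overlap for these 5 segments. Leave-1-out fits called 1 to 7 segments in this contrast, 1 without either of regressing replicates 1 and 2, 2 without progressing replicate 3 and 3 without progressing replicate 1 or regressing replicate 3. The calls of Trbv23 and Trbv13-3 were lost in each of the 6 leave-1-out fits. That of Trbv26 was kept in 1 of 6, without progressing replicate 2, and that of Trbv14 in 3 of 6, being lost without progressing replicate 3 or regressing replicate 1 or 2. DESeq2 called 15 segments, 14 of them higher, and limma-voom called 16 higher.

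With both outcomes averaged, ATO against water gave 11 segments that rose and 0 that fell of 22, where 10.9% of all tested genes were called, 3.57% higher and 7.3% lower. At an unadjusted p under 0.05 there were 17 higher and 2 lower, against 11% and 18% of all genes, DESeq2 called 15 higher and 0 lower, and limma-voom 6 and 0. All 6 ATO libraries were above all water libraries for 4 segments (6.13% of all genes) and below them for 0 (6.16% of all genes). The median log2 difference was 3.88 for the 22 and -0.11 for all. The largest rises were Trbv31 at 7.89 (SE 1.33, edgeR adjusted p = 0.00740), Trbv26 at 4.999 (0.02499), Trbv5 at 4.81 (0.0216), Trbv19 at 4.47 (0.0335) and the pseudogene Trbv24 at 4.34 (0.0477), with adjusted p in parentheses. Trbv31 and Trbv5 were higher in 6 of 6 ATO libraries than in any water library, and the groups overlapped for the other 3. With the 6 treated libraries as 1 group in the fit, 1 segment was called. Leave-1-out fits called 2 and 4 without regressing replicates 2 and 1, 5 and 7 without water replicates 2 and 3, 7 without regressing replicate 3, and 9 to 13 otherwise.

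The water libraries held other cells in unequal amounts. Summed markers of B cells (Cd79a, Cd79b, Ms4a1, Pax5 and Cd22) were 1068, 3048 and 64.7 CPM in water replicates 1 to 3, against 5.84 to 32.6 in progressing and 82.0 to 117 in regressing libraries. The V level of the same water libraries was 309, 113 and 138 CPM, which followed the B-cell markers in neither direction. Of these 5 markers 5 fell in progressing and 1 in regressing against water by edgeR, where 7.13% and 4.57% of all tested genes fell. Limma-voom called 1 and 0. Thymic epithelium markers (Prss16, Psmb11, Foxn1, Krt5, Krt8 and Epcam) were 1133 to 1317 CPM in regressing, 23.2 to 77.8 in progressing and 85.1 to 741 in water libraries. Of these 6 markers 5 were called higher in regressing than in progressing, against 6.45% of all tested genes. Against water 2 were called higher and 0 lower in regressing libraries, where 3.13% of all tested genes rose. Prss16 alone made up 892, 799 and 683 CPM of the regressing sums. Krt5 was at 35.5, 82.9 and 436 CPM in water and 98.0, 51.1 and 127 in regressing libraries. Foxn1 and Epcam overlapped between these groups too, so the order of the sums does not hold for each marker.

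Markers of double-positive thymocytes, the stage that follows beta chain selection (Cd4, Cd8a, Cd8b1, Rag1, Rag2 and Ptcra), were 146 to 525 CPM in water, 1563 to 2604 in progressing and 3540 to 7443 in regressing libraries. Ptcra had no count in water replicate 2 and Rag2 none in water replicate 3. Ptcra was at 88.6, 2.02 and 29.9 CPM in progressing and 16.5, 19.9 and 11.6 in regressing libraries, so the order of the sums does not hold for it. Of these 6 markers 5 rose in regressing and 4 in progressing against water, where 3.13% and 4.77% of all tested genes rose. Between regressing and progressing edgeR called 0, with 4 higher at an unadjusted p under 0.05, 3 by DESeq2 and 2 by limma-voom. Summed macrophage markers were 1406 to 2128 CPM in water, 192 to 999 in progressing and 333 to 711 in regressing libraries. Adipocyte markers were 37.6 to 142, 119 to 1087 and 120 to 3341 CPM, and NK-cell markers at most 13.8 CPM in each. Of the 6 gamma-delta T-cell markers only Trdc, Sox13 and Blk were matched by symbol, at 122 to 217 CPM in water, 2.71 to 54.7 in progressing and 167 to 241 in regressing libraries. Blk, a kinase also found in B cells, made up 107, 120 and 203 CPM of the water values. Trdc, the constant gene of the delta chain, had 13, 0 and 2 counts in water, 838, 3 and 0 in progressing and 2008, 2094 and 2069 in regressing libraries. It rose by 8.66 in regressing against water (SE 2.16, edgeR adjusted p = 0.0389). This call was lost in each of the 6 leave-1-out fits and with DESeq2. The part of these cell types in the V profiles was not tested.

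The constant genes joined to these segments also differed between lymphomas. Trbc1 and Trbc2 had 274 and 11547 counts in water replicate 1, 2643 and 6269 in replicate 2 and 12122 and 4390 in replicate 3. Progressing libraries had 11640 and 6577, 6762 and 12061, and 20485 and 12846. Regressing libraries had 17861 and 21449, 15991 and 18139, and 9092 and 8262. The Trbc2 share was 47.6% to 54.6% in regressing, and it spanned 26.6% to 97.7% in water and 36.1% to 64.1% in progressing libraries.

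Neither constant gene passed the test in any thymus contrast, by edgeR, DESeq2 or limma-voom, and 0 were at an unadjusted p under 0.05. With no filter on low counts edgeR called Trbc1 higher in regressing, progressing and all ATO libraries against water (adjusted p = 0.0223, 0.0281 and 0.0116). The log2 differences against water were 1.55 (SE 0.93, edgeR adjusted p = 0.299) for Trbc1 and 1.08 (SE 0.51, edgeR adjusted p = 0.195) for Trbc2 in regressing libraries. In progressing libraries they were 1.53 (SE 0.93, edgeR adjusted p = 0.309) and 0.66 (SE 0.51, edgeR adjusted p = 0.424). Trbc1 and Trbc2 have near-identical stretches: 283 windows of 50 bases were found in both, 40.5% of those in Trbc1 and 44.0% of those in Trbc2. The split of reads from these stretches is uncertain. In the grafts Trbc1 had 4, 10, 9 and 2 counts beside 26008, 27353, 18636 and 14688 of Trbc2, so few Trbc2 reads were counted on Trbc1 there. How many Trbc1 reads were counted on Trbc2 was not tested. The V counts came to 13.6 to 40.7 per 100 counts of Trbc1 and Trbc2 in water, 6.29 to 27.7 in progressing and 21.8 to 32.3 in regressing libraries.

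**Figure D5:**
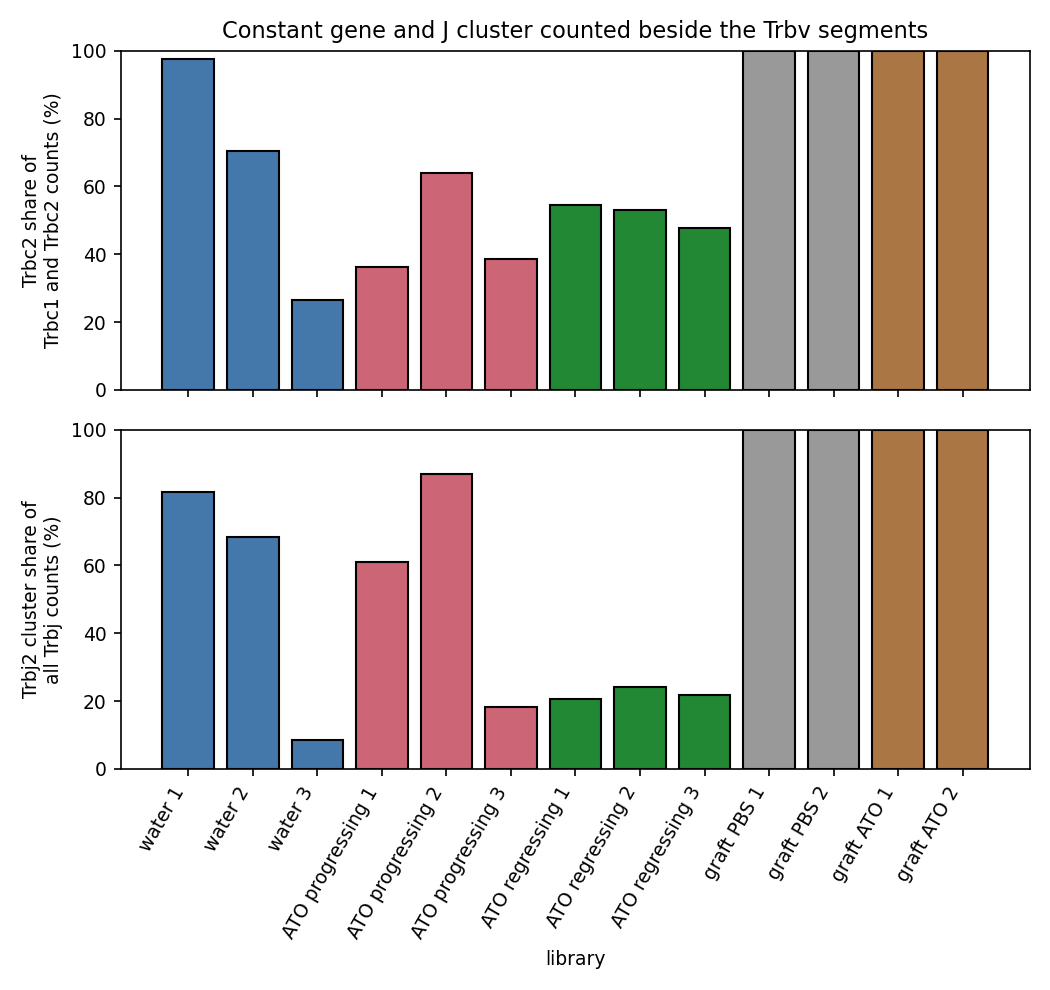
Trbc2 in percent of Trbc1 and Trbc2 counts (top) and the Trbj2 cluster in percent of all Trbj counts (bottom), 1 bar per library, 13 libraries coloured by group. Regressing libraries lie at 47.6% to 54.6% Trbc2, water libraries reach from 26.6% to 97.7%, and all 4 grafts are at 99.9% or more.

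Joining segments came in 2 clusters, Trbj1 before Trbc1 and Trbj2 before Trbc2, with 14 segments in all. The clusters had 33 and 146 counts in water replicate 1, 6 and 13 in replicate 2, and 1651 and 154 in replicate 3. Progressing libraries had 396 and 621, 27 and 181, and 994 and 223, and regressing libraries 3164 and 826, 2385 and 755, and 1468 and 411. The larger J cluster and the larger constant gene had the same number in water replicates 1, 2 and 3, progressing replicates 2 and 3 and regressing replicate 3. They differed in progressing replicate 1, with more Trbj2 and more Trbc1, and in regressing replicates 1 and 2, with more Trbj1 and more Trbc2.

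Of 13 tested J segments 1 rose in regressing against water, where 7.7% of all tested genes were called, 3.13% higher. That count is thus no result about J segments as a set. In progressing against water edgeR called 0, DESeq2 2 higher and limma-voom 1 higher. At an unadjusted p under 0.05, 3 were higher there, against 12.4% of all genes. Trbj1-1 had 0, 2 and 0 counts in water, 0, 0 and 1 in progressing and 65, 58 and 19 in regressing libraries. It rose by 5.83 (SE 1.25, edgeR adjusted p = 0.0245) against water and by 6.58 (SE 1.34, edgeR adjusted p = 0.0189) against progressing. These calls were kept in 2 of 6 and 3 of 6 leave-1-out fits, and both were lost without regressing replicate 1 or 2. The first was also lost without water replicate 1 or 3 and the second without progressing replicate 3. The diversity segment Trbd2 had 2, 11 and 14 counts in water, 95, 55 and 157 in progressing and 26, 34 and 20 in regressing libraries. It rose by 3.57 in progressing against water (SE 0.80, edgeR adjusted p = 0.0193), a call lost without progressing replicate 3 or with regressing libraries left out, and Trbd1, the other D segment, was not called.

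Of 15 genes of V(D)J recombination, 4 rose and 1 fell in regressing against water, and 5 rose and 1 fell in progressing against water. Among all tested genes, 3.13% rose and 4.57% fell in regressing, and 4.77% rose and 7.13% fell in progressing against water. Between the treated groups edgeR called 0, with 3 higher and 2 lower at an unadjusted p under 0.05, 3 and 1 by DESeq2 and 2 and 0 by limma-voom. Dntt, the polymerase that adds untemplated bases at the joints, had 18, 43 and 6 counts in water, 12825, 5113 and 5235 in progressing and 19215, 17817 and 10293 in regressing libraries. Lig4, the ligase that closes the joints, had 150, 183 and 225 counts in water, 2245, 731 and 1482 in progressing and 1775, 1618 and 989 in regressing libraries. Dntt rose by 9.36 (SE 0.84, edgeR adjusted p = 0.00135) in regressing and by 8.40 (SE 0.81, edgeR adjusted p = 0.000897) in progressing against water. Lig4 rose by 2.95 (SE 0.39, edgeR adjusted p = 0.00502) and by 3.04 (SE 0.39, edgeR adjusted p = 0.00221). Rag1 and Rag2 also rose in both. The genes that fell, named after their values were seen, were Xrcc5, a subunit of the Ku DNA end binder, in regressing and Poll, a gap-filling polymerase, in progressing thymuses.

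The receptor partners of the beta chain were matched for 7 of 10 names. Of these 3 rose in regressing and 2 in progressing against water, where 3.13% and 4.77% of all tested genes rose. Ptcra, the surrogate alpha chain that pairs with a fresh beta chain, had 2, 0 and 1 counts in water, 1440, 24 and 407 in progressing and 267, 283 and 176 in regressing libraries. Cd247, the CD3 zeta chain, rose by 2.30 (SE 0.37, edgeR adjusted p = 0.0106) in regressing and by 1.44 (SE 0.36, edgeR adjusted p = 0.0282) in progressing thymuses. Of 11 transcription regulators of the locus 3 rose in each group against water, Bcl11b and Runx1 in both. The calls of Runx1 in regressing and of Bcl11b in progressing thymuses were each kept in 1 of 6 leave-1-out fits, those without regressing replicate 3 and without progressing replicate 2, and that of Bcl11b was also lost with only water and progressing libraries in the fit. The progressing call of Cd247 was likewise kept only without progressing replicate 2, and its regressing call was lost without regressing replicate 1 or 2. The raised recombination genes of the progressing libraries stood beside V profiles led by 1 segment, and those of the regressing libraries beside V profiles spread over 19.

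All 4 grafts were led by Trbv19, which led in no thymus. It had 7668 and 5367 counts after PBS, 84.6% (83.8% to 85.3%) and 68.0% (67.0% to 69.0%) of the V counts. After ATO it had 3703 and 3608 counts, 74.2% (73.0% to 75.4%) and 73.9% (72.6% to 75.1%). The leading share was 76.3% ± 11.7 after PBS and 74.0% ± 0.237 after ATO (SD, n = 2 each), so the PBS pair bracketed the ATO pair.

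The same 6 segments held the highest counts in all 4 grafts, in differing order. The second was Trbv16 in both PBS and Trbv13-2 in both ATO grafts. Below Trbv19 stood Trbv13-2 with 340 and 477 counts in PBS against 445 and 521 in ATO libraries, Trbv26 with 274 and 371 against 349 and 369, Trbv16 with 422 and 729 against 197 and 75, and Trbv15 with 104 and 188 against 79 and 125. For Trbv12-2 the PBS grafts held 75 and 592 counts and the ATO grafts 56 and 68, so PBS graft 2 stood apart. The PBS grafts had 83.2% of their profile in common, the ATO grafts 96.0%, and a PBS with an ATO graft 85.6% to 88.8%.

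Several segments were nearly absent from the grafts. Trbv29 and Trbv30 had 0 counts in all 4, which allows a share of up to 0.0331% and 0.0380% after PBS and 0.0601% and 0.0614% after ATO (3 counts of the V total). Trbv4, Trbv12-1 and Trbv31, leaders in thymus lymphomas, had at most 5 counts in any graft. Grafts had 18.4% to 30.3% of their profile in common with regressing thymuses, and 39.3% to 40.1% with Trbv19 left out.

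The grafts were also uniform beyond the V segments. Trbc2 counts in PBS grafts were 26008 and 27353, those in ATO grafts 18636 and 14688, against 4, 10, 9 and 2 for Trbc1. The Trbj1 cluster had 0 counts in all 4 grafts, and the Trbj2 cluster had 155 and 207 after PBS and 334 and 281 after ATO. Trbd1 and Trbd2 had 0 counts, apart from 1 count of Trbd1 in ATO graft 2.

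In the grafts 10 of 35 segments passed the filter on low counts, and 3 fell and 0 rose with ATO, where 13.9% of 15468 tested genes were called, 6.57% lower and 7.37% higher. At an unadjusted p under 0.05 there were 4 lower and 0 higher, against 14.8% and 17% of all genes, and DESeq2 and limma-voom each called 2 lower and 0 higher. Both ATO grafts were below both PBS grafts for 5 segments (30% of all genes) and above them for 1 (31.7% of all genes). The median log2 difference was -0.57 for the 10 and 0.04 for all. Trbv16, with 422 and 729 against 197 and 75 counts, fell by 2.04 (SE 0.44, edgeR adjusted p = 0.0160), and was called in 4 of 4 leave-1-out fits. Trbv19, with 7668 and 5367 against 3703 and 3608 counts, fell by 0.85 (SE 0.24, edgeR adjusted p = 0.0375). The groups did not overlap for either.

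Trbv12-2 fell by 2.39 (SE 0.68, edgeR adjusted p = 0.0394), but without PBS graft 2 the difference was -0.37 and not called. The call of Trbv19 was lost without PBS graft 1, at -0.51, and without ATO graft 2. Trbc2 was lower by 0.67 (SE 0.23, edgeR adjusted p = 0.0710) and did not pass the test. Trbj2-2 rose by 2.38 (SE 0.55, edgeR adjusted p = 0.0203), from 7 and 13 counts to 49 and 56, the 1 of 5 tested J segments that was called, and the call was lost without PBS graft 1.

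Total V level was 659 and 529 CPM after PBS and 367 and 321 after ATO. Summed T-cell markers were 6016 to 7330 CPM after PBS and 3664 to 4745 after ATO, and 1 of the 8, Cd3d, passed the test as lower, with a log2 difference of -1.12 (SE 0.21, edgeR adjusted p = 0.0104). Ptcra fell by 1.45 (SE 0.42, edgeR adjusted p = 0.0423) and Dntt by 1.10 (SE 0.21, edgeR adjusted p = 0.0109). The difference of Ptcra ran from -2.33 to -0.82 over the leave-1-out fits, and its call was lost without PBS graft 1 and with DESeq2 (adjusted p = 0.237). Of 14 tested recombination genes 3 rose and 2 fell, where 7.37% of all tested genes rose and 6.57% fell. Of 11 regulators of the locus edgeR, DESeq2 and limma-voom called 0, with 1 higher at an unadjusted p under 0.05. The mitochondrial share moved with the same groups, as given above. Summed macrophage markers were 486 to 625 CPM after PBS and 294 to 310 after ATO, with 2 of 5 called lower. The part of both in these falls was not tested.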

How the data were processed

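RNA libraries of thymus and grafted tumours were analysed. Per the labels' protocols, TRIzol served for RNA and a SMARTer mRNA-Seq kit for the libraries. The same text holds a passage on cultured cells, so it is not known how far it applies. FastQC 0.10.1, cutadapt 1.9.1 and HISAT2 2.0.1 and the builds GRCm38 and mm10 are named in the submitters' processing notes, with no role or order. The counting program, its use of strand, its treatment of reads with several matches and the annotation are not given in the sources used here. The authors deposited raw counts per gene, with no normalization, in 1 table for thymus and 1 for grafts, with an exonic size per gene. The FPKM values beside them were not used. No sample column was left unused in these 2 tables. Counts on a V gene hold reads that match its germline sequence, and reads across the joint can be lost.

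Shares were raw counts of a segment over the counts of all Trbv genes of a library. The test of levels was edgeR's (edgeR 4.0.16, R 4.3.3; filterByExpr, TMM, quasi-likelihood test, Benjamini-Hochberg over all tested genes, threshold 0.05), with the 9 thymus libraries in 1 fit of 3 groups and the 4 grafts in another. The SE of a log2 difference is its absolute value over the square root of the test's F statistic, an approximation. Shares and effective numbers have no test. The test was also run on simulated counts in which all libraries of a group share 1 mean per gene. That setting is unlike segments where 1 library held nearly all counts, so it does not vouch for their calls. Alternatives were DESeq2 1.42.0, limma-voom (limma 3.58.1), RLE factors, no filter on low counts, a replicate block, only the compared groups, and each replicate left out. For shares they were counts per exonic base, summed families, segments under 10 counts left out and pseudogenes left out. Biotypes and sequences came from GENCODE vM21, matched for 35 of 35 segments. Relatedness was taken from global alignments (Biopython 1.88) and shared windows of 50 bases.

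The segments and the gene lists were chosen with earlier results of these data known. A B-cell and a thymocyte marker were left out of their lists and are not reported here. Named segments are those with at least 10% of the V counts in any library, the second segment of each library, the 5 largest called rises and falls per contrast, Trbc1 and Trbc2, and called members of the other lists, up to 4 each.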

Additional observations from a re-analysis of the deposited data

Results flagged for a closer look

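Trbv16, Trbv19 and Trbv24 differed in opposite directions in thymus and grafts: every ATO thymus of the group named was above every water thymus, and both ATO grafts were below both PBS grafts. Against water, Trbv16 was higher by 5.87 on the log2 scale in regressing and by 2.70 in progressing thymuses, and it was lower by 2.04 (log2 difference -2.04) in ATO grafts against PBS. Trbv19 was higher by 5.98 in regressing thymuses, with a difference of -0.85 in grafts. Trbv24 was higher by 6.17 in regressing thymuses, with -0.61 in grafts, where it was not called (edgeR adjusted p = 0.431). The progressing value of Trbv16 was not called either (edgeR adjusted p = 0.0597). The tables were normalized separately and the difference between the systems was not tested. Trbv19 was the leading segment of the grafts and held 0.0477% to 1.32% of the V counts in the 6 other lymphoma libraries.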

How the results depend on the processing

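Each alternative for shares kept the leading segment, or its family where families were summed, in all 13 libraries. Summing families raised the mean leading share of the regressing thymuses to 21.4% and lowered their effective number to 10.2. In the ATO grafts, whose 2 libraries were nearly equal, the leading share was 64.4% per exonic base, 74.8% without segments under 10 counts and 74.7% without pseudogenes, with effective numbers of 2.24, 1.73 and 1.74. Leaving out 1 replicate gave mean leading shares of 84.9% to 93.5% in water, 82.0% to 90.1% in progressing, 11.9% to 13.9% in regressing, 68.0% to 84.6% in PBS and 73.9% to 74.2% in ATO grafts. The effective numbers were then 1.14 to 1.36, 1.24 to 1.48, 15.3 to 16.2, 1.39 to 2.07 and 1.77 to 1.77.

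Segments called with 1 replicate left out numbered 0 to 13 in regressing against water, 1 to 5 in progressing against water, 1 to 7 in regressing against progressing, 2 to 13 in ATO against water and 2 to 4 in grafts. A graft group then has 1 library, which is assumed to vary like the other group. With no filter on low counts they numbered 11, 22 and 19 in progressing against water, regressing against progressing and ATO against water. With limma-voom they were 0, 16 and 6. Only the compared groups in the fit gave 1 in progressing against water, and 1 treated group in the fit, chosen after seeing the data, gave 1 in ATO against water. For ATO against water the fit of only the compared groups is the fit of all groups. The difference of Trbv12-1 in progressing against water ran from -9.91 to 0.99 over the leave-1-out fits, and that of Trbc1 in regressing against progressing from -0.14 to 0.55. Where no value above shows it, the cause was not tested.

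Same-numbered thymus libraries did not deviate together (correlations of -0.124 to 0.136), and the labels do not say what a number marks. With the replicate block, 14, 1, 8 and 9 segments were called in regressing against water, progressing against water, regressing against progressing and ATO against water, and 2 in grafts. The graft numbers correlated at -0.130, and the block with crossed numbers, chosen after seeing the data, called 3. With 1484 to 9066 V counts per library, counting error alone leaves the shares of the leaders precise to within 2 percentage points. Processing moved some of them further: in PBS graft 2 the share of Trbv19 was 68.0% by counts and 58.4% per exonic base. Folds of segments at a few counts have wide intervals.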
